A study of Mus musculus with 8 samples.

Results

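Integrins are receptors on the cell surface, each made of 1 α and 1 β subunit, that hold cells to the extracellular matrix and pass signals from it to the cytoskeleton. The 9 integrin subunit genes described here were taken by name from a table of gene expression in mouse 3T3-L1 adipocytes, which listed 10663 entries: the α subunits Itga1, Itga3, Itga5, Itga6, Itga7 and Itgav, and the β subunits Itgb1, Itgb3 and Itgb5, which the table spells in capitals as ITGA1, ITGA3, ITGA5, ITGA6, ITGA7, ITGAV, ITGB1, ITGB3 and ITGB5. Each matched exactly 1 entry, and all 9 passed the filter on low values. The study compared 4 libraries labelled as overexpressing miR-690 (miR-690oe) with 4 control libraries. 3T3-L1 cells are mouse embryonic fibroblasts that differentiate into adipocytes when induced, and the labels give passage 2 to 3 for all 8 libraries. The labels' treatment text names a miR-690 mimic at 5 pM for every library, controls included, and no source used here says what the control cells received instead. Whether libraries of 1 group were separate cultures is not stated, so the p-values describe the scatter of these 8 libraries, and that scatter may be technical.

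In fat cells the matrix is a basement membrane of laminin and type IV collagen, and fibroblasts sit instead in a matrix rich in fibronectin and fibrillar collagen. Differentiation of mouse preadipocytes is known to shift the α subunits from α5, which forms the fibronectin receptor with β1, to α6, which forms a laminin receptor with β1. The β1 subunit is the shared partner of most α subunits in the list, while αV also pairs with β3 and β5 to bind vitronectin and other proteins with an RGD motif.

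The labels name miR-690-5p, where the suffix 5p denotes the 5' arm of a hairpin. The RefSeq table of microRNAs (GRCm38.p6) holds 1 mature product of Mir690, and no source used here says that the mimic carried its sequence. This product lies on the 3' arm, at bases 83 to 104 of a hairpin of 109 bases, on chr16:28599940-28599961, minus strand. Its sequence is shown because every match to it below depends on it, with the seed, bases 2 to 8, in capitals:
mmu-miR-690: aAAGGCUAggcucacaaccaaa
None of the 9 annotated 3' UTRs of the members held the 7-base match to that seed, TAGCCTT, on the transcript strand, which 11.9% of the 10363 listed genes with an annotated 3' UTR held. A shorter 6-base match to bases 2 to 7, AGCCTT, was found in the 3' UTRs of 3 of the 9 members, against 42.6% of the listed genes; any 7-base match contains it. The 5 sites, in capitals, in their mm10 transcript context are:
Itga1, chr13:114953865-114953870, minus strand: taacacaccccAGCCTTatatgaaaaccag
Itga1, chr13:114953783-114953788, minus strand: tcctggtggtcAGCCTTtggatctgagaag
Itga5, chr15:103345003-103345008, minus strand: agctttccttcAGCCTTtgcattttggaga
Itgb3, chr11:104667384-104667389, plus strand: cagagctccacAGCCTTtgtcctcaggggc
Itgb3, chr11:104668574-104668579, plus strand: cattttatctcAGCCTTtaatctgggaggc
Only the first Itga1 site is followed by an A, the base that faces base 1 of the microRNA. None of the 5 sites also matched base 8, so none was in the strongest class of sites. A match is a description of letters and does not show binding. Mir690 itself had 0 entries in the table, so the level of the microRNA was not analysed here.

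Levels were given in CPM, which are read counts scaled so that the listed genes of a library sum to 1000000. The miR-690oe libraries held 31211349 to 38235522 reads and the control libraries 29773446 to 33816227 reads over these genes. A member had between 236 reads (Itga3) and 29260 reads (Itgb1) in a library, so counting error alone gives a coefficient of variation of 5.87% for Itga3 and 0.657% for Itgb1. The markers of differentiated adipocytes were present, with 14 of 15 listed. Fabp4 stood at 5884 ± 652 CPM in miR-690oe libraries and 6573 ± 333 CPM in control libraries (SD, n = 4 each). Adipoq stood at 698 ± 82.0 CPM in miR-690oe libraries and 779 ± 61.7 CPM in control libraries (SD, n = 4 each). Neither differed at a limma adjusted p under 0.05. Of the 14, Plin4 was higher in miR-690oe at that threshold, Cfd and Cidec were lower, and 11 were not called, with a median log2 fold change of -0.09. All 10 fibroblast and preadipocyte markers were listed too, summing to 6382 to 7800 CPM in miR-690oe and 7316 to 8036 CPM in controls, while the adipocyte markers summed to 11799 to 15290 CPM in miR-690oe and 13380 to 14886 CPM in controls. Of 8 leukocyte markers 3 were listed, at a summed 21.4 to 24.1 CPM in miR-690oe and 24.1 to 27.9 CPM in controls; Ptprc, Csf1r, Itgam and Itgb2 had no entry, nor had any of 6 epithelial markers, and 1 of 6 endothelial markers was listed. In such bulk RNA, a change in the share of a cell type and a change in RNA per cell cannot be told apart, and the part of the marker levels in the results below was not tested.

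Itgb1, Itga6 and Itga5 were the most abundant of the 9 transcripts per length. Divided by the length of the longest coding transcript, Itgb1 stood highest, at 195 ± 5.71 CPM per kb in miR-690oe and 175 ± 6.30 CPM per kb in controls (SD, n = 4 each). Itga6 followed with 78.8 ± 8.67 CPM per kb in miR-690oe and 61.7 ± 3.55 CPM per kb in controls, and Itga5 with 53.7 ± 1.96 CPM per kb in miR-690oe and 52.4 ± 2.27 CPM per kb in controls. Itgb5 had 14.7 ± 0.880 CPM per kb in miR-690oe and 15.6 ± 0.644 in controls, and Itgav had 13.2 ± 0.583 CPM per kb in miR-690oe and 8.70 ± 0.746 in controls. Below them came Itga7, which forms a laminin receptor known from skeletal muscle, at 8.32 ± 0.728 CPM per kb in miR-690oe and 7.91 ± 0.955 in controls. Itgb3, Itga3 and Itga1 were the rarest, between 1.26 ± 0.164 CPM per kb (Itga1) and 3.13 ± 0.427 CPM per kb (Itgb3) in miR-690oe and between 1.03 ± 0.0823 (Itga1) and 2.76 ± 0.122 (Itgb3) in controls.

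**Figure D1:**
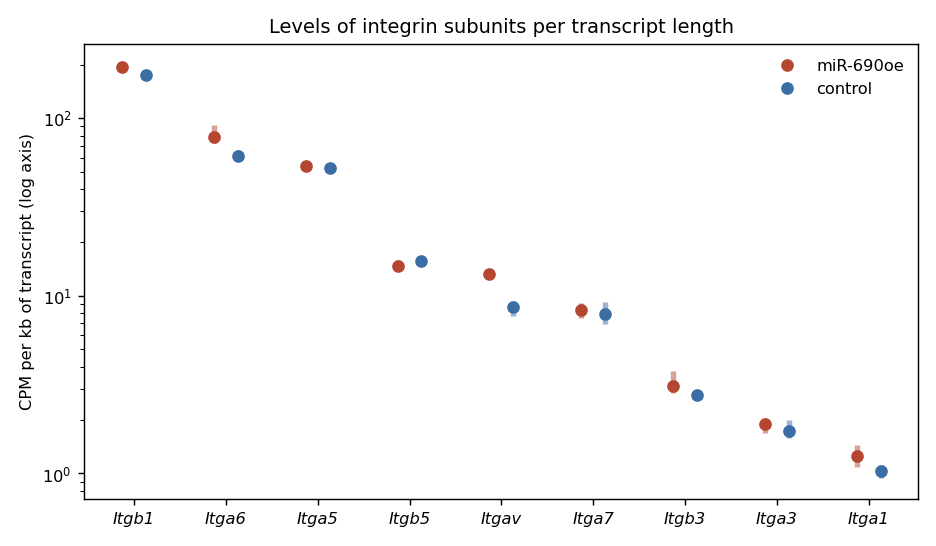
Level of each integrin subunit in CPM per kb of transcript on a log axis, miR-690oe in red and control in blue, with the mean of 4 libraries as a point and the range as a bar. The order of the 9 subunits is the same in both groups, from Itgb1 at 195 CPM per kb in miR-690oe and 175 in controls to Itga1 at 1.26 CPM per kb in miR-690oe and 1.03 in controls.

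The order was the same in both groups, and the ranges over the 4 libraries separated all neighbours except Itgb5 and Itgav in miR-690oe and Itgav and Itga7 in controls. In controls the mean of Itgb5 was 1.80 times that of Itgav per length, with separate ranges, and in miR-690oe it was 1.11 times that of Itgav, with ranges that overlapped. The length used for each member was also that of its longest coding transcript with a RefSeq entry, so that alternative could not change the levels. Shorter transcripts were not tried.

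Of the 9 subunits, 4 (44.4%) were higher in miR-690oe at a limma adjusted p under 0.05 and 0 were lower, where 26% of the 10658 genes tested were higher and 17.4% lower, 43.4% in all. The members called were Itgav, Itga6, Itgb1 and Itga1. At an unadjusted limma p under 0.05 the same count was 4 of the 9, beside 5421 of the 10658 genes tested in either direction. The authors' deposited table also lists 4 members higher and 0 lower at a false discovery rate under 0.05, against 24.7% of its genes higher and 45.3% in either direction. Log2 fold changes compare miR-690oe with control libraries as log2(CPM + 0.5), and the median over the 9 members was 0.15, beside 0.02 over all genes tested. The levels moved with transcript length across the whole table: the median log2 fold change was -0.17 among the genes of 1755 nt or less, 0.11 among the genes of 3633 to 5064 nt and 0.26 among those of 5068 nt or more, where 74.5% were called higher. The members' transcripts ran from 3282 nt (Itgb5) to 10967 nt (Itga1), so each difference is given also from a fit in which a smooth trend over transcript length and GC content was removed from each library, called the trend-removed fit below. In that fit 2 of the 9 were higher, Itgav and Itga6, and 0 lower, where 7.22% of 10610 genes were higher and 8.85% lower, 16.1% in all, and the members' median was 0.01, beside -0.006 over all genes.

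**Figure D2:**
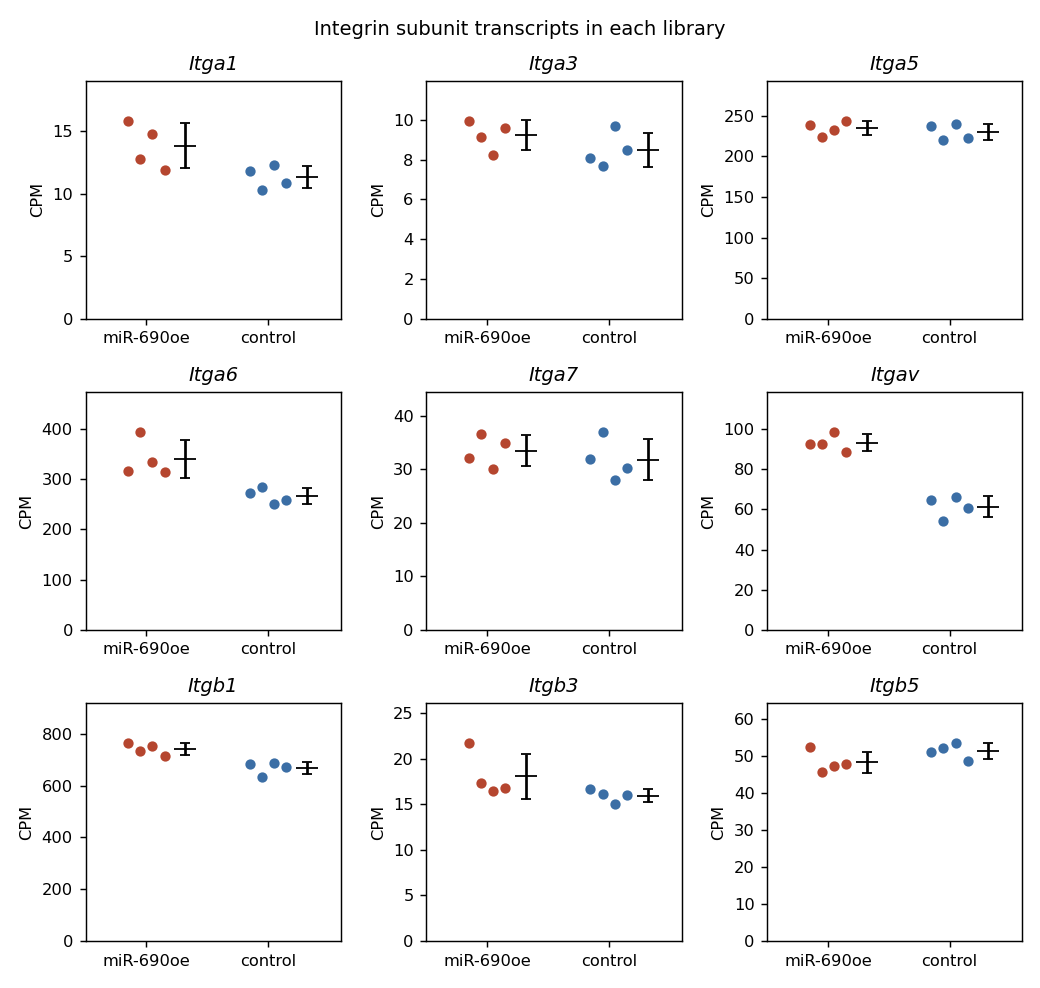
CPM of the 9 integrin subunits in each library, miR-690oe in red on the left and control in blue on the right of each panel, with the mean and SD of 4 libraries as black bars; each axis starts at 0. The groups do not overlap for Itgav, Itga6 and Itgb1, and overlap for the other 6.

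Itgav (chr2:83724397-83806916, plus strand, mm10), which encodes the αV subunit of the vitronectin receptors, had the largest difference of the 9. It stood at 92.8, 92.7, 98.7 and 88.7 CPM in miR-690oe libraries 1 to 4 and at 64.5, 54.2, 66.0 and 60.6 CPM in control libraries 1 to 4. The groups did not overlap, and the lowest miR-690oe library lay well above the highest control library. The mean was 93.2 ± 4.11 CPM in miR-690oe and 61.3 ± 5.26 CPM in controls (SD, n = 4 each), a 1.52-fold difference (95% confidence interval 1.39 to 1.66; log2 fold change 0.60 ± 0.059 (SE), limma adjusted p = 3.44e-06). It ranked 59 from the highest of the 10658 genes tested. In the trend-removed fit the log2 fold change was 0.31 ± 0.050 (limma adjusted p = 0.00116), a 1.24-fold difference, still higher than that of 98.5% of genes, and it stayed between 0.26 and 0.34 with any 1 library left out of that fit (limma adjusted p at most 0.00619). A transcript on the opposite strand, Gm13684, overlaps 634 of the 10744 exon bases annotated for Itgav, and no source used here gives the strand setting of the counting.

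Itga6 (chr2:71745616-71858416, plus strand), the α chain of the laminin receptors α6β1 and α6β4, was next. Its level was 316, 394, 334 and 314 CPM in miR-690oe libraries 1 to 4 and 271, 284, 249 and 259 CPM in control libraries 1 to 4. The groups did not overlap, and miR-690oe library 2 stood above the other 3 of its group. The mean was 339.6 ± 37.4 CPM in miR-690oe and 266 ± 15.3 CPM in controls (SD, n = 4 each), a log2 fold change of 0.35 ± 0.064 (SE, limma adjusted p = 0.000496). In the trend-removed fit it was 0.24 ± 0.063 (limma adjusted p = 0.0201), with 3 of the 4 miR-690oe libraries above all controls, and in that fit the call was lost without control replicate 3 (0.20, limma adjusted p = 0.0575) or control replicate 4 (0.22, limma adjusted p = 0.0647). Without miR-690oe replicate 2, the highest library, the same fit gave 0.17 (limma adjusted p = 0.041).

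Itgb1 (chr8:128685654-128733200, plus strand), the common β chain, had the third difference without overlap. It stood at 765, 733, 754 and 717 CPM in miR-690oe libraries 1 to 4 and at 683, 634, 687 and 672 CPM in control libraries 1 to 4. All 4 miR-690oe libraries were above all 4 controls, by a margin smaller than the range within either group. With means of 742 ± 21.8 CPM in miR-690oe and 669 ± 24.0 CPM in controls (SD, n = 4 each), the difference in log2 was 0.15 ± 0.043 (SE, limma adjusted p = 0.00983). It was 0.04 ± 0.037 in the trend-removed fit (limma adjusted p = 0.544; 95% confidence interval -0.04 to 0.12). The share of all genes tested whose groups did not overlap with miR-690oe higher was 22.4%, and 38.3% in either direction, beside 3 of the 9 members (33.3%).

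Itga1 (chr13:114953096-115101964, minus strand), which forms a collagen receptor with β1, is the longest transcript of the 9. It stood at 15.8, 12.8, 14.7 and 11.9 CPM in miR-690oe libraries 1 to 4 and at 11.8, 10.3, 12.3 and 10.9 CPM in control libraries 1 to 4. The highest control library lay above the lowest miR-690oe library. Its log2 fold change of 0.27 ± 0.089 (SE, limma adjusted p = 0.0214) was -0.15 ± 0.072 in the trend-removed fit (limma adjusted p = 0.184), so the direction turned and the call ended. Without trend removal the call was also lost when miR-690oe replicate 1 or 3 or control replicate 2 or 4 was left out (limma adjusted p = 0.0715, 0.0641, 0.0726 and 0.0561). Of its 18599 annotated exon bases, 685 overlap those of the gene model Gm49395 on the same strand, so reads there could have been split between them.

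Itgb3 (chr11:104608000-104670476, plus strand), the β chain that αV shares with the platelet subunit αIIb, missed the threshold. It stood at 21.7, 17.4, 16.4 and 16.8 CPM in miR-690oe libraries 1 to 4 and at 16.7, 16.1, 15.0 and 16.0 CPM in control libraries 1 to 4. miR-690oe library 1 was the highest, and the coefficient of variation was 13.6% in miR-690oe and 4.42% in controls, beside 4.22% from counting error. In log2 it differed by 0.17 ± 0.081 (SE, limma adjusted p = 0.101), 0.08 without that library, and -0.003 in the trend-removed fit (95% confidence interval -0.15 to 0.14).

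Itgb5 (chr16:33829665-33949338, plus strand), the other αV partner among the members, was the only subunit with a negative log2 fold change, and it was not called. It ranged from 45.7 to 52.4 CPM in miR-690oe and from 48.6 to 53.6 CPM in controls, with 3 of 4 miR-690oe libraries below all controls. The estimate was -0.09 ± 0.054 in log2 (SE, limma adjusted p = 0.201; 95% confidence interval -0.20 to 0.03), and -0.08 in the trend-removed fit; after quantile normalization it was -0.14 and passed the threshold (limma adjusted p = 0.0424).

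The remaining α subunits overlapped between the groups. Itga5 (chr15:103344286-103366763, minus strand), the α chain of the fibronectin receptor, ranged from 225 to 244 CPM in miR-690oe and from 220.2 to 239.5 CPM in controls, with a log2 fold change of 0.03 ± 0.045 (SE, limma adjusted p = 0.575; 95% confidence interval -0.06 to 0.13). Itga3 (chr11:95044474-95076801, minus strand), the α chain of another laminin receptor, ranged from 8.25 to 9.96 CPM in miR-690oe and from 7.68 to 9.67 CPM in controls (log2 fold change 0.12 ± 0.086, limma adjusted p = 0.286). Itga7 (chr10:128933818-128958282, plus strand) ranged from 30.1 to 36.6 CPM in miR-690oe and from 27.9 to 37.0 CPM in controls (log2 fold change 0.08 ± 0.079, limma adjusted p = 0.459). In the trend-removed fit the log2 fold changes of these 3 were -0.04, 0.01 and 0.03. As deposited, the 95% confidence interval for Itga5 ran from 0.958 of the control level to 1.09-fold higher, while those of Itga3 and Itga7 reached 1.23-fold and 1.18-fold higher. In the trend-removed fit the interval for Itga5 was -0.12 to 0.04 in log2.

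**Figure D3:**
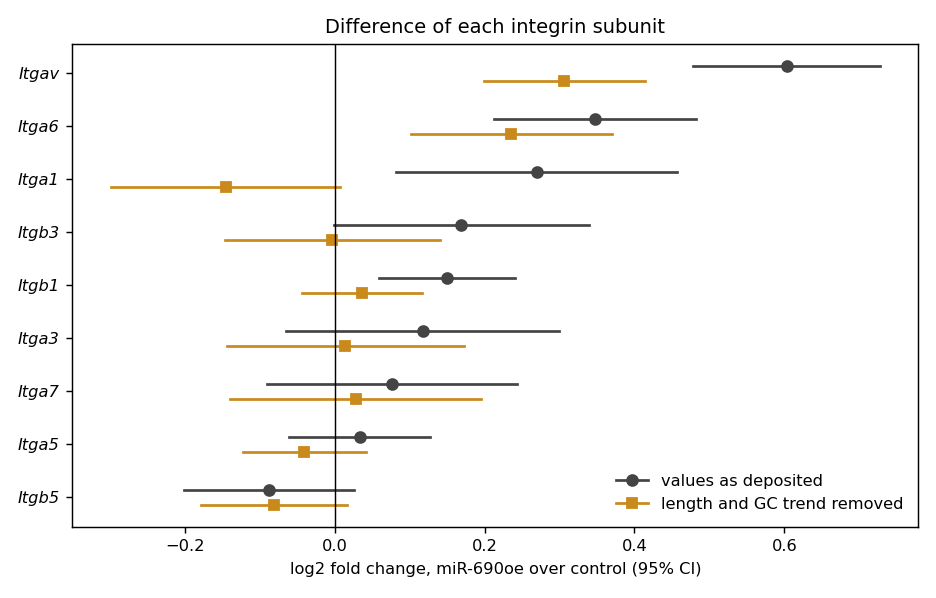
Log2 fold change of each subunit, miR-690oe over control, with its 95% confidence interval from limma, for the values as deposited (circles) and with the trend over transcript length and GC content removed (squares). Itgav and Itga6 lie to the right of 0 in both fits, Itga1 lies at 0.27 in the first and at -0.15 in the second.

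**Figure D4:**
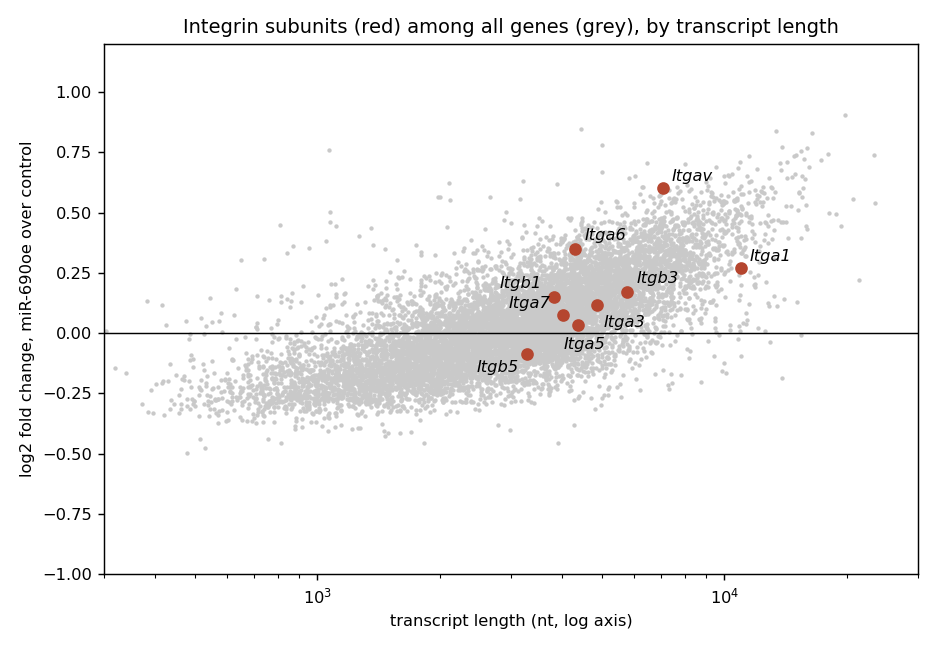
Log2 fold change against transcript length (log axis) for 10605 genes in grey and the 9 subunits in red; 5 genes lie outside the axes. Itgav and Itga6 sit above most genes of their length, and Itga1, the longest of the 9, sits below most genes of its length.

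Ratios of subunits that form a receptor were also compared within each library, where the scaling of a library largely cancels. The ratio of Itgb3 to Itgb5, both β partners of Itgav, was added to these. For the 9 ratios the 70 ways of labelling 4 and 4 libraries give a smallest two-sided p of 0.0286, and 3 ratios reached it: Itgav over Itgb1, Itgav over Itgb5 and Itgb3 over Itgb5. Adjusted over the 9 ratios by the Benjamini-Hochberg method each of the 3 had an exact permutation p of 0.0857, so no ratio passed 0.05. In the trend-removed fit Itgav over Itgb1, Itgav over Itgb5 and Itga1 over Itgb1 reached the smallest p. Each again had an adjusted exact permutation p of 0.0857. The CPM ratio of Itgav to Itgb5 was 1.77, 2.03, 2.08 and 1.85 in miR-690oe libraries 1 to 4 and 1.26, 1.04, 1.23 and 1.25 in control libraries 1 to 4. All miR-690oe libraries stood above all controls, and the log2 ratio differed by 0.69 (exact permutation p = 0.0286), or by 0.39 in the trend-removed fit (exact permutation p = 0.0286). The ratio of Itgav to Itgb1 was 0.126 ± 0.00409 in miR-690oe and 0.0916 ± 0.00476 in controls (SD, n = 4 each), with a log2 difference of 0.45, and of 0.27 in the trend-removed fit (exact permutation p = 0.0286 for both).

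Itgav over Itgb3 differed by 0.43 in log2 (exact permutation p = 0.0571), with miR-690oe library 1, the one highest in Itgb3, inside the range of the controls. Itgb3 over Itgb5 differed by 0.26 (exact permutation p = 0.0286) and by 0.08 in the trend-removed fit (exact permutation p = 0.314). Itga6 over Itgb1 differed by 0.20 in log2 (exact permutation p = 0.114) and Itga5 over Itgb1 by -0.12 (exact permutation p = 0.0571). Itga1, Itga3 and Itga7 over Itgb1 had differences of 0.12, -0.03 and -0.07 (exact permutation p = 0.20, 0.714 and 0.629); the ratio of Itga1 was -0.18 in the trend-removed fit, without overlap between the groups (exact permutation p = 0.0286).

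**Figure D5:**
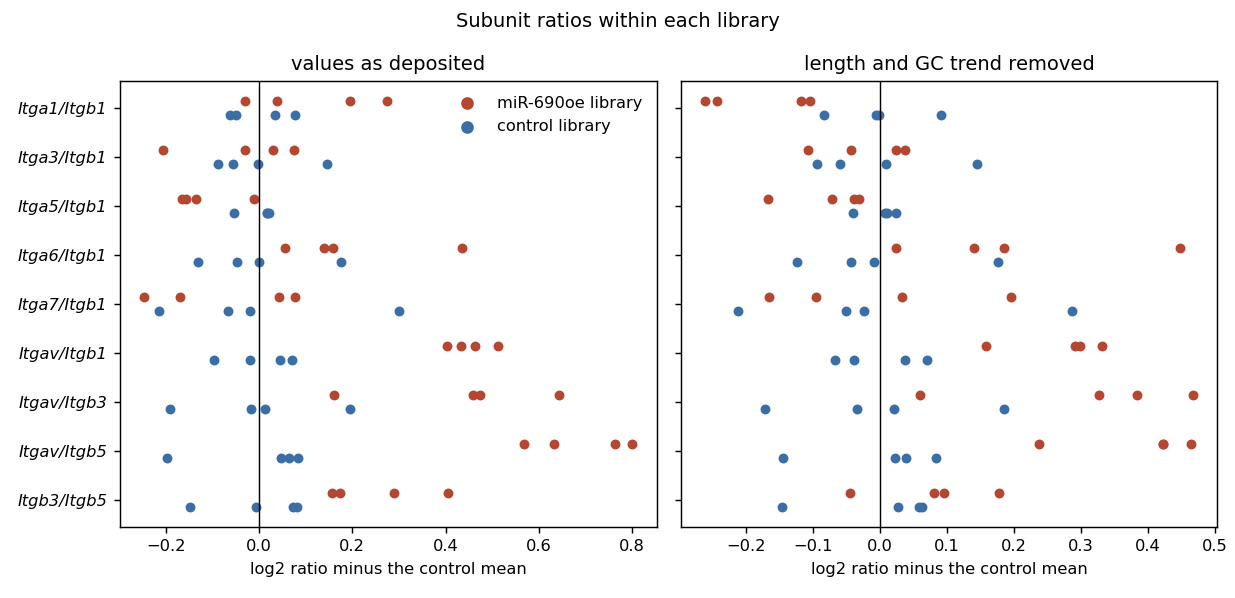
Log2 ratio of 2 subunits in each library minus the mean of the control libraries, with miR-690oe in red above control in blue for each ratio, from the values as deposited (left) and in the trend-removed fit (right). For Itgav over Itgb1 and Itgav over Itgb5 the 4 miR-690oe libraries lie above the 4 control libraries in both panels.

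The genes whose profile over the 8 libraries was most like that of Itgav, by the root-mean-square difference of mean-centred log2(CPM + 0.5) values, were Cpeb2 (0.057), Bmpr2 (0.058) and Sec24a (0.062), with transcripts of 7050, 12899 and 6581 nt beside 7054 nt for Itgav. No other member was as close: the nearest was Itga1, at 0.19. For Itgb1 the nearest genes were Rbsn (0.020), Slc7a6 (0.024) and Smad3 (0.025), and the nearest member was Itga5 at 0.076. These are descriptions over libraries that share the group difference.

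Of the 17 other integrin subunit genes of the mouse looked for, 1 had an entry, Itga2b, which encodes the platelet subunit αIIb that pairs with β3. It stood at 18.8 ± 1.34 CPM in miR-690oe and 21.7 ± 1.29 CPM in controls (SD, n = 4 each; log2 fold change -0.20, limma adjusted p = 0.0203), and at -0.21 in the trend-removed fit (limma adjusted p = 0.0196), opposite in sign to Itgb3 as deposited. The other platelet markers looked for, Gp9 and Pf4, had no entry. Genes of leukocyte integrins (Itgal, Itgam, Itgax, Itgb2) and of epithelial integrins (Itgb4, Itgb6) were among the 16 without an entry. Of the partners of α6 only β1 had an entry, and why the others had none is not stated.

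Among 30 listed matrix ligands of integrins 15 were higher and 1 lower, with a median log2 fold change of 0.21. Of all genes tested 26% were higher and 17.4% lower. The median transcript length of these ligands was 5838.5 nt, and 74.5% of all genes of 5068 nt or more were called higher. In the trend-removed fit 4 ligands were higher and 2 lower, with a median of 0.03. In that fit 7.22% of all genes were higher and 8.85% lower. Col6a3, a chain of type VI collagen, was 1.37-fold higher (limma adjusted p = 9.23e-05) and Fbn1, which encodes the RGD-bearing microfibril protein fibrillin-1, 1.45-fold higher (limma adjusted p = 0.000408), and neither was called in the trend-removed fit (limma adjusted p = 0.124 and 0.159). Thbs1, a matricellular ligand of αV and other integrins, kept a log2 fold change of 0.45 in that fit (limma adjusted p = 0.00291). Mfge8, a secreted RGD protein bound by αV integrins, was the 1 lower ligand, at 0.846 of the control level (limma adjusted p = 0.00184; 0.059 in the trend-removed fit). Vtn, which encodes vitronectin, had no entry.

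Among 32 listed genes of talin, kindlin and other adhesion adaptors 7 were higher and 2 lower (median 0.07). In the trend-removed fit 1 was higher and 3 lower (median -0.02). The shares to set beside each list of this paragraph are those of all genes tested. They were 26% higher and 17.4% lower as deposited, and 7.22% higher and 8.85% lower in the trend-removed fit. Vcl, which encodes the actin-binding protein vinculin, was 1.21-fold higher (limma adjusted p = 0.000247) and was not called in the trend-removed fit (limma adjusted p = 0.0633). Ilk, a pseudokinase that binds β tails, was at 0.862 of the control level, and Itgb1bp1, which encodes the β1-binding inhibitor ICAP-1, at 0.865 (limma adjusted p = 0.000619 and 0.00778), the second also called in the trend-removed fit (limma adjusted p = 0.0367). Of 22 kinases and adaptors of integrin signalling 7 were higher and 2 lower (median 0.05), or 1 and 1 in the trend-removed fit (median -0.03), with Dock1, Pak2 and Ptpn12 up 1.18-fold, 1.15-fold and 1.16-fold and Rhoa and Csk at 0.910 and 0.914 of the control level as deposited. Of these 5 only Ptpn12, a phosphatase gene, was called in the trend-removed fit (log2 fold change 0.14, limma adjusted p = 0.0309), where Dock1 and Pak2 turned to -0.009 and -0.04 (limma adjusted p = 0.903 and 0.579) and Rhoa and Csk stood at -0.10 and -0.08 (limma adjusted p = 0.119 and 0.173). Of 18 membrane partners, folding and recycling factors 5 were higher and 5 lower (median -0.06), or 3 and 0 in the trend-removed fit (median 0.001). Canx, the chaperone calnexin, was 1.18-fold higher, Rab21, which binds the α tails during endocytosis, 1.14-fold and Gga3, which sorts β1 integrins for recycling, 1.18-fold; in the trend-removed fit Canx and Rab21 were not called (log2 fold change 0.07 and 0.006, limma adjusted p = 0.195 and 0.943). Bsg, Tspan4 and Snx17, which retrieves β1 from degradation, were at 0.863, 0.854 and 0.874 of the control level. Their transcripts ran from 1466 to 2018 nt, shorter than all 9 members, and none of the 3 passed the threshold in the trend-removed fit, while Gga3 did (limma adjusted p = 0.0314).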

How the data were processed

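The authors deposited 1 table of values per gene and library. Although it was named as RPKM, each of its 8 library columns summed to 1000000, so the deposited values were taken as CPM over the listed genes. Every value was within 0.1 read of a whole multiple of 1 step per library, which gave the reads per library. These were used for depth and counting noise, not for the fits. Tools named, without a role, in the submitters' processing notes are Trimmomatic 0.38 and edgeR 3.20.9, and the build named is mm10; no source used here gives the aligner, the counter or its strandedness. Per the file headers, the authors' table also held a log2 fold change, an average log2 CPM, an LR score per gene, and the false discovery rate beside its unadjusted p-value.

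Genes with at least 0.5 CPM in at least 4 libraries were kept (10658). log2(CPM + 0.5) values were fitted with limma 3.58.1 in R 4.3.3 (lmFit, eBayes with trend, two-sided, Benjamini-Hochberg over all genes tested, threshold 0.05), with group as the only term. Replicates differed by more than sampling noise (chi-square per degree of freedom 3.96 to 21.9). Transcripts, GC content and 3' UTRs came from GENCODE M21 (mm10), matched to 10615 entries (99.55%); the trend used natural splines with 4 degrees of freedom each, per library. Ratios used exact permutation tests in scipy 1.17.1 under Python 3.11.15. The fits were tested on simulated data.

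The members and lists were chosen with earlier results of these data known. Named genes were the members, up to 3 called genes with the lowest adjusted p in each direction per list, and the 3 genes nearest in profile to Itgb1 and Itgav. Some genes that this rule names are not reported here. Alternatives covered the pseudocount, filter, scaling, array weights, the variance model, the trend, a replicate block, the threshold, and each library left out; leaving out libraries from the fit with the trend removed was added after seeing the data.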

Additional observations from a re-analysis of the deposited data

Results flagged for a closer look

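In 36 groups of 4 libraries (9 subunits and 9 ratios in 2 groups each), the gap between an extreme library and its neighbour was compared with the range of the group, and chance flags about 1 in 20 such groups. Control library 4 had the lowest log2 ratio of Itga5 to Itgb1, -1.59 against -1.52 in each of the other 3 controls, with a gap of 0.929 of the range. Control library 2 had the lowest log2 ratio of Itgav to Itgb5, 0.05 against 0.30 to 0.33 in the other 3, with a gap of 0.869 of the range; without it the difference between the groups was 0.62, against 0.69 with all 8 libraries.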

How the results depend on the processing

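The log2 fold changes of the 9 subunits and the counts of calls were recomputed under other pseudocounts, filters, scalings, variance models and array weights, a replicate block, a trend over length and GC content, a threshold of 0.01, and without each library in turn. The calls of Itgav and Itga6 held under all of these as deposited; for Itga6 they were lost in 2 of 8 fits with both the trend removed and 1 library left out, an alternative chosen after seeing the data. Removing the trend, with or without the replicate block, turned the log2 fold changes of Itga1 to -0.15, Itga5 to -0.041 and Itgb3 to -0.0032 and the ratio of Itga1 to Itgb1 to -0.18, and took Itgb1 to 0.037, without a call; the cause was not tested. Without each library in turn, as deposited and with the trend removed, the lowest and highest log2 fold changes were -0.18 and 0.34 for Itga1, -0.026 and 0.18 for Itga3, -0.058 and 0.055 for Itga5, 0.17 and 0.38 for Itga6, -0.037 and 0.15 for Itga7, 0.017 and 0.17 for Itgb1 and -0.065 and 0.21 for Itgb3. Itga1, at 0.27, missed a threshold of 0.01, and Itgb5 was lower after quantile normalization (-0.14), the 1 subunit called lower there. The leave-one-out log2 ratios ran from -0.07 to 0.03 for Itga3 over Itgb1 and from -0.15 to 0.03 for Itga7 over Itgb1.

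The subunits called higher numbered 4 as deposited, 2 with the trend removed (also with the block), and 1 to 4 over the fits without 1 library. Over all genes tested, 2773 were higher and 1853 lower, against 766 and 939 with the trend removed, 523 and 682 with block and trend, and 423 to 2798 and 585 to 2013 without 1 library; 1059 were lower at a threshold of 0.01. After quantile normalization 2207 were higher and 2546 lower. The replicate numbers did not pair the libraries (correlations of same-numbered deviations -0.30, 0.31, -0.10 and -0.33), and the replicate block left 4 subunits higher, with 2567 genes higher and 1642 lower. Matching bases 2 to 7 in place of 2 to 8 of the microRNA gave 3 members with a site. The planned count models were not run: the values were deposited as CPM, and the reads recovered from them were not used for fits. Counting error limits Itga3 most.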

Other observations

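Summed per length, the 6 α subunits came to 157 ± 7.28 CPM per kb in miR-690oe and 133.5 ± 3.37 CPM per kb in controls, and the 3 β subunits to 212 ± 6.61 CPM per kb in miR-690oe and 194 ± 6.29 CPM per kb in controls (SD, n = 4 each). Of the α sum, Itga6 made up 47.6 to 54.4% in miR-690oe and 43.9 to 48.7% in controls, while the mean share of Itga5 was 34.2% in miR-690oe and 39.3% in controls, and that of Itgav 8.42% in miR-690oe and 6.52% in controls. Of the β sum, Itgb1 made up 91.6% in miR-690oe and 90.5% in controls, and Itgb5 6.93% in miR-690oe and 8.08% in controls. These sums and shares are from the values as deposited, without the trend over length and GC content removed, and were not tested. Des, the 1 muscle marker of 6 with an entry, had a log2 fold change of -0.26. Of the 14 listed adipocyte markers 1 was higher and 2 lower, with 0 in either direction once the length and GC trend was removed. Of the 10 fibroblast and preadipocyte markers 3 were higher and 2 lower, against 0 higher and 1 lower with that trend removed. Of the 3 listed leukocyte markers 0 were higher and 2 lower, against 0 in either direction with it removed. Among all genes tested 26% were higher and 17.4% lower, and with the trend removed 7.22% were higher and 8.85% lower.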
